A study of Mus musculus with 4 samples.

Results

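The genes described here make, bind and break down hyaluronan, or lubricate the joint surface: Has1, Has2, Has3, Cd44, Cemip, Hyal1, Prg4, Vcan and Tnfaip6. They were chosen by name, 9 of the 32285 genes in the count matrices, and were followed in single-cell RNA libraries from the presumptive knee joint of mouse embryos, cut from cleaned hindlimb cartilage anlagen and digested with collagenase D. There were 4 libraries with 1 for each condition: an E13.5 control and an E14.5 control, both without Cre, an E14.5 library labelled Prx1cre;Glut1f/f;Glut3f/+ (below, Glut1-deleted) and an E14.5 library labelled Prx1cre;Glut1f/f;Glut3f/f (below, DCKO). Prx1Cre is active in the limb mesenchyme, so it acts in cartilage and joint precursors alike, and the controls are given as Cre-negative without further alleles. No embryo received a treatment. The number of embryos pooled in each library was not given in the sources used here, so every difference below is between single libraries, without a replicate check and without a test. Values in series are given in the order E13.5 control, E14.5 control, Glut1-deleted and DCKO.

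Hyaluronan is a long unbranched sugar polymer that synthases in the plasma membrane build from UDP-glucuronic acid and UDP-N-acetylglucosamine and extrude directly into the matrix. In the limb it fills the space around condensing mesenchyme, and in the forming joint it accumulates where the cavity opens. There it is bound by the receptor CD44 and by proteoglycans such as versican, while lubricin, the product of Prg4, coats the articular surface. The interzone, a band of flattened cells that expresses Gdf5, marks the site of the future joint between the cartilage elements.

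Levels are UMIs (counted RNA molecules) of a gene per 1000000 UMIs summed over a class of cells (CPM), and all intervals are exact 95% intervals that cover counting error only. Filtered cells numbered 12446, 9305, 11264 and 11305, with median depths of 6176.5, 7279, 6757 and 6379 UMIs. Gdf5-positive cells, mesenchymal or chondrocyte-like cells with at least 1 Gdf5 UMI, numbered 2372, 1295, 1474 and 861. Other mesenchymal cells, without a Gdf5 UMI, numbered 5336, 2485, 3629 and 2839, and chondrocyte-like cells without one 2614, 4613, 4827 and 6475. Fewer expressing cells and less RNA per cell cannot be told apart in such sums. The targeted gene Slc2a1 (Glut1) went against the labels in its 3′ UMIs, with 51.1, 46.4, 244 and 289 CPM in Gdf5-positive cells, and Slc2a3 (Glut3) was at 5.07, 3.94, 3.18 and 1.58 CPM there. A 3′ tag outside the deleted stretch checks nothing, and where that stretch lies relative to the counted 3′ end was not given. The labels could thus not be checked from these UMIs, and the mutant names below mean the libraries labelled so. Xist was detected in 64.7%, 0.172%, 92.2% and 91.2% of filtered cells, so the sex of the embryos cannot be told apart from age and genotype.

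The Gdf5-positive class did not hold the same cells in every library. Cluster 1, whose leading genes were Gdf5, Tm4sf1, Htra1 and Sfrp2 and which carried the interzone markers, supplied 68.4%, 67.9%, 58.1% and 38.4% of it. The chondrocyte-like cluster 2, led by Snorc, Panx3 and Ihh, supplied 3.20%, 13.4%, 12.1% and 25.7%. In the Gdf5-positive class the summed level of the 8 chondrocyte markers, all of them detected, was 2988, 7884, 8979 and 9891 CPM, against 2297, 2405, 3168 and 3002 CPM in its cluster 1 cells. The 5 interzone markers summed to 2924, 2495, 1959 and 1052 CPM in the class. Values within clusters are therefore given beside the class differences that the results turn on. A Gdf5 UMI was also present in 4.95% of erythroid-like cells, which should lack the gene, compared with 45.3% of cells in cluster 1, 3.97% in the mesenchymal cluster 3 led by Dcn and Akap12, and 6.25% in the mesenchymal cluster 4 led by Alpl and Maf. The chondrocyte-like clusters 0, 2 and 6 had one in 10.2%, 8.58% and 3.94%, at median depths of 6545, 10657.5 and 8845 UMIs against 8085 in erythroid-like cells. After each cell was thinned to 2000 UMIs the shares were 1.48% in erythroid-like cells, 27.0% in cluster 1, 3.62%, 2.33% and 0.978% in clusters 0, 2 and 6, and 1.26% and 2.0% in clusters 3 and 4. As a level Gdf5 was at 11.03 CPM in cluster 2, 5.43 in cluster 6, 8.06 in cluster 3 and 12.5 in cluster 4, and at 21.7 CPM in cluster 0. The other cells that should lack it held 18.2 CPM in the erythroid-like, 3.46 in the skeletal muscle-like, 5.82 in the endothelial-like and 6.58 in the glial or neuronal-like cluster. By level clusters 2, 3, 4 and 6 were thus inside the range of these cells and cluster 0 above it, while by thinned share clusters 0, 2 and 4 were above erythroid-like cells and clusters 3 and 6 below them. Single Gdf5 UMIs outside cluster 1 may therefore include free RNA, to an extent that was not tested. Clusters 3 and 4 were given no narrower name.

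Cd44, Vcan, Tnfaip6 and Prg4 were the members that stood at least 2-fold higher in Gdf5-positive than in chondrocyte-like cells in all 4 libraries. The proximal promoters of Cd44, Vcan and Tnfaip6 are shown because these genes had that pattern in common, and Prg4 is only named. Each window holds the 250 bases before the RefSeq start site on the GRCm38.p6 build, 5′ to 3′ on the gene's strand: chr2:102901666-102901915 on the minus strand for Cd44, chr13:89742513-89742762 on the minus strand for Vcan and chr2:52037863-52038112 on the plus strand for Tnfaip6. Capitals mark the letters of an AP-1 motif (TGANTCA) or a SMAD box (CAGAC), searched on both strands.
Cd44: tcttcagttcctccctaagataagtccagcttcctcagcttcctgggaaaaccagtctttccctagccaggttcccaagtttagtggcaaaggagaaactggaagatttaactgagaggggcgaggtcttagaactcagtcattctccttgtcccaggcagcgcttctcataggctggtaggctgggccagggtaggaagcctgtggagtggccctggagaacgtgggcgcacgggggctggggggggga
Vcan: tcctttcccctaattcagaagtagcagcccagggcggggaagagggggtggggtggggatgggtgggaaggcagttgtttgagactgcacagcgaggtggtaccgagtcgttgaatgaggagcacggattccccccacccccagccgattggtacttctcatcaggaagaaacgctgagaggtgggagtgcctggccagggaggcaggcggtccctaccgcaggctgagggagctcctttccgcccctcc
Tnfaip6: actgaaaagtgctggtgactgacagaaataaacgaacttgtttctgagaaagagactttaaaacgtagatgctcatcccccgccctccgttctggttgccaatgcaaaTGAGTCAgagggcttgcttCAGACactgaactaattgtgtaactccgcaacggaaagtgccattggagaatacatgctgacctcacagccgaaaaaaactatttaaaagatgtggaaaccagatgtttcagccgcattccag
The Tnfaip6 window held an AP-1 match 142 bases and a SMAD box match 123 bases before the start site, whereas the Cd44 and Vcan windows held neither set of letters. The gene span given for Tnfaip6 below starts at 52038009, inside this window, so these distances hold for the RefSeq start site only. Of all 32851 promoter windows of the same length, 6.75% held the AP-1 motif and 42.2% the SMAD box. Of the 6 members with a RefSeq window, 1 held the AP-1 motif and 4 (Has1, Cemip, Hyal1 and Tnfaip6) the SMAD box. A match is a description of letters and not of a bound site.

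**Figure D1:**
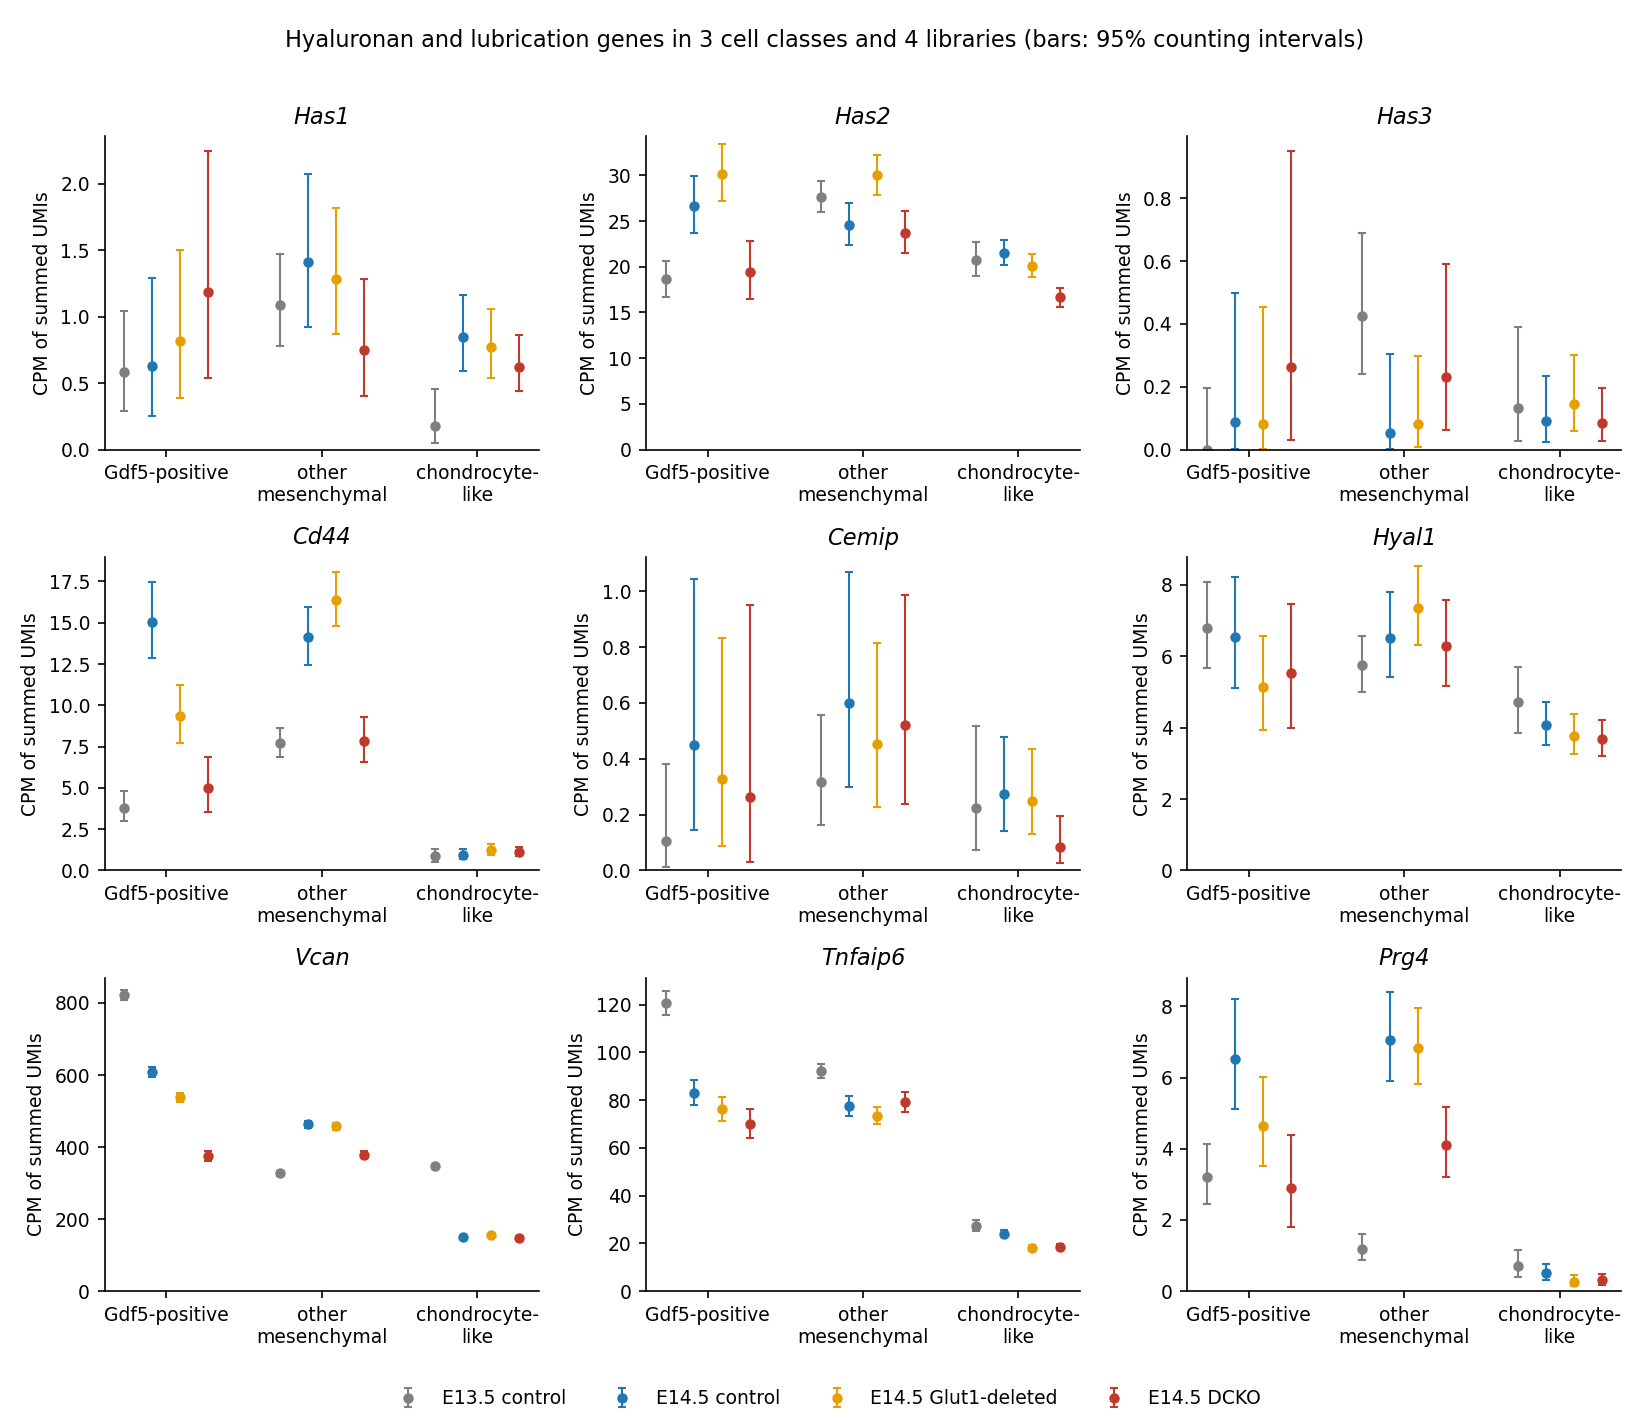
Level of each of the 9 genes (y axis, CPM with exact 95% Poisson intervals as bars, a separate scale in each panel) in Gdf5-positive, other mesenchymal and chondrocyte-like cells of the 4 libraries. Vcan and Tnfaip6 were highest in Gdf5-positive cells of the E13.5 control (822 and 121 CPM), and Cd44 was low in chondrocyte-like cells of every library (0.844 to 1.23 CPM).

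Has2 was the hyaluronan synthase measured with the most UMIs, 148 to 1043 in each class and library, and its level was much the same across classes. Has2 (chr15:56665627-56694539, minus strand) encodes the synthase on which embryonic hyaluronan mostly depends. In Gdf5-positive cells it stood at 18.6, 26.7, 30.1 and 19.5 CPM, in other mesenchymal cells at 27.6, 24.6, 30.002 and 23.7 CPM, and in chondrocyte-like cells at 20.8, 21.5, 20.1 and 16.7 CPM. Neither Gdf5-positive nor chondrocyte-like cells held a 2-fold excess over the other in any library. The log2 ratio of Gdf5-positive to chondrocyte-like cells was -0.16 (-0.36 to 0.04), 0.31 (0.12 to 0.50), 0.58 (0.41 to 0.76) and 0.22 (-0.03 to 0.48). Scaling by trimmed-mean (TMM) factors turned the DCKO value to -0.05. A Has2 UMI was found in 12.6%, 18.2%, 18.7% and 13.9% of Gdf5-positive cells and in 2.48% of erythroid-like cells, whose median depth was 8085 UMIs against 6234, 6835, 6438.5 and 6883. Thinned to 2000 UMIs per cell, a depth that 2343, 1278, 1458 and 853 cells reached, the shares were 3.42%, 5.27%, 5.76% and 4.17%, against 0.438% in erythroid-like cells. Among the 5 large clusters Has2 was lowest in cluster 4 at E14.5, at 9.45, 14.8 and 13.7 CPM, where the E13.5 control had 25.7 CPM.

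Has1 and Has3, the other synthases, were near the limit of detection. Has1 (chr17:17843323-17855205, minus strand) had 7 to 11 UMIs in Gdf5-positive cells, or 0.580, 0.627, 0.815 and 1.18 CPM. It was at 1.09, 1.41, 1.28 and 0.751 CPM in other mesenchymal cells and in chondrocyte-like cells at 0.178, 0.844, 0.769 and 0.623 CPM. Has3 (chr8:106870242-106884566, plus strand) had 0, 1, 1 and 2 UMIs in Gdf5-positive cells, and the 0 of 2372 cells in the E13.5 control allows a share of up to 0.126% of cells with a UMI by a limit of 3 counts (0.155% by the exact interval). Has3 had 16, 1, 2 and 4 UMIs in other mesenchymal cells and in chondrocyte-like cells 3, 4, 7 and 5. Counts this low gave no order of the classes in the E14.5 libraries. Against 16 UMIs in other mesenchymal cells of the E13.5 control, Has3 was at least 2.68-fold lower in Gdf5-positive cells, taking the limit of 3 counts over the class and leaving aside the counting error of the 16 UMIs. The exact upper limit of the Gdf5-positive level was 0.195 CPM and the exact lower limit of the other 0.242 CPM, so the intervals lay close to each other.

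Of the enzymes that supply the sugar precursors, few stood apart between the classes. The list held 9 genes from glucose-6-phosphate isomerase to Ugdh, the dehydrogenase that makes UDP-glucuronic acid. Against chondrocyte-like cells none was 2-fold higher in the E13.5 control or the E14.5 control library, and 1 of 9 was 2-fold lower in each, Ugdh in the former and Gfpt2 in the latter, beside 15.8% and 15.9% of all genes apart in either direction. The median log2 ratio of the list was -0.53 and -0.19, beside 0.12 and 0.15 over all genes tested. Ugdh stood at 131, 213, 184 and 224 CPM in Gdf5-positive cells, 374, 405, 364 and 342 CPM in chondrocyte-like cells and 69.1, 87.9, 81.1 and 94.3 CPM in other mesenchymal cells. Gfpt2, an enzyme at the entry of the hexosamine pathway, stood at 29.9, 45.6, 49.1 and 48.9 CPM in Gdf5-positive cells. It stood at 12.4, 20.5, 21.7 and 21.3 CPM in other mesenchymal and 58.9, 93.1, 79.1 and 68.7 CPM in chondrocyte-like cells, with the Gdf5-positive class between them in all 4 libraries. Against other mesenchymal cells the class held at least 2-fold more Gfpt2 in every library and more Ugdh in the E14.5 libraries, 1 and 2 of 9 genes in the controls, beside 12.3% and 12% of all genes apart. Without the cells of chondrocyte-like clusters these differences were smaller. In the Gdf5-positive cells of cluster 1 Ugdh stood at 115.6, 89.2, 80.9 and 86.9 CPM and Gfpt2 at 29.6, 22.5, 28.4 and 19.2 CPM, so that at E14.5 both lay within 2-fold of other mesenchymal cells.

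Cd44 (chr2:102811141-102901665, minus strand), the cell surface receptor for hyaluronan, had the widest range in Gdf5-positive cells among the members with at least 22 UMIs in every library. It stood at 3.8 CPM (2.97 to 4.78) in the E13.5 control, 15.0 CPM (12.9 to 17.5) in the E14.5 control, 9.37 CPM (7.74 to 11.2) in the Glut1-deleted and 4.995 CPM (3.54 to 6.86) in the DCKO library. The E13.5 control and DCKO intervals overlapped, and the other neighbours in the order did not. Other mesenchymal cells held 7.71, 14.1, 16.4 and 7.85 CPM and chondrocyte-like cells 0.844, 0.935, 1.23 and 1.09 CPM. A Cd44 UMI was present in 2.61%, 10.0%, 6.11% and 3.95% of Gdf5-positive cells, or 0.643%, 3.43%, 1.92% and 1.11% after thinning. In chondrocyte-like cells, whose median depths were 7335, 8232, 8412 and 7684 UMIs, the share was 0.727%, 0.889%, 1.08% and 0.942%. It lay below the 1.55% of erythroid-like cells but inside their interval (0.504% to 3.58%), and whether it is background was not tested. After thinning it was 0.157%, 0.160%, 0.154% and 0.197%, beside 0.182%. The share of Gdf5-positive cells in the E13.5 control, 2.61%, also lay inside the interval of the erythroid-like cells. Ratios of Cd44 to chondrocyte-like cells thus rest on a level that was not set apart from that of erythroid-like cells. The share in other mesenchymal cells was 4.74%, 8.09%, 8.46% and 3.95%.

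Of the other hyaluronan receptors, Hmmr was also measured well, at 68.4, 70.6, 51.2 and 63.5 CPM in Gdf5-positive cells. Hmmr binds hyaluronan and also serves the mitotic spindle. Stab1, a scavenger receptor of endothelial cells and macrophages, was at 1.32, 1.79, 1.71 and 0.789 CPM. Cd44 and Stab1 were the receptors that were 2-fold higher in Gdf5-positive than in chondrocyte-like cells in both control libraries. Cluster 8, outside the classes compared and led by S100a9, S100a8 and Lyz2, held Cd44 at 84.7 CPM over the 4 libraries, and the 6 macrophage markers summed to 1.06, 2.51, 1.71 and 3.02 CPM in Gdf5-positive cells. All 6 were detected in the E13.5 control, 4 in the E14.5 control (C1qa and C1qb at 0 UMIs), and 5 in each mutant library, where C1qa and Tyrobp respectively were at 0. Their part in the level of Cd44 was not tested.

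Of the genes that degrade hyaluronan, Hyal1 was measured in every class and Cemip hardly at all. Hyal1 (chr9:107576927-107581710, plus strand) encodes a lysosomal hyaluronidase, and its annotated span overlaps that of Hyal3 (chr9:107580818-107587359) on the same strand, so its counts are uncertain. It stood at 6.81, 6.54, 5.13 and 5.52 CPM in Gdf5-positive cells, 5.75, 6.52, 7.36 and 6.29 CPM in other mesenchymal cells and 4.71, 4.08, 3.78 and 3.69 CPM in chondrocyte-like cells. The order put chondrocyte-like cells lowest in each library, by less than 2-fold. Its log2 ratio of Gdf5-positive to chondrocyte-like cells was 0.53 (0.15 to 0.92), 0.68 (0.27 to 1.08), 0.44 (0.00 to 0.86) and 0.58 (0.07 to 1.06). Cemip (chr7:83932857-84086502, minus strand), which binds hyaluronan and is needed for its breakdown outside the lysosome, had 2, 5, 4 and 2 UMIs in Gdf5-positive cells, 12, 11, 11 and 9 in other mesenchymal and 5, 12, 12 and 5 in chondrocyte-like cells. Hyal2, a hyaluronidase anchored at the cell surface, stood at 67.5, 44.6, 49.2 and 40.2 CPM in Gdf5-positive cells. In the E14.5 control library no gene of the breakdown list was 2-fold apart between Gdf5-positive and chondrocyte-like cells, and the list's median log2 ratio was 0.47, beside 0.15 over all genes tested.

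Vcan (chr13:89655312-89742509, minus strand), which encodes versican, a large proteoglycan that aggregates on hyaluronan, was measured with 2852 to 15586 UMIs per library in Gdf5-positive cells. Its level there was 822 CPM (810 to 835), 608 CPM (594 to 623), 538 CPM (525 to 551) and 375 CPM (361 to 389), with no overlap between any of the intervals. In other mesenchymal cells it was 327, 463, 457 and 379 CPM, and in chondrocyte-like cells 346, 149, 156 and 146 CPM. Gdf5-positive cells held the most in every library but DCKO, where they were level with other mesenchymal cells. The class drew 38.4% of its cells from cluster 1 in DCKO, against 67.9% in the E14.5 control. All of cluster 1, whose levels follow below, held more Vcan than other mesenchymal cells in DCKO too. The part of class makeup in the class levels was not tested. A Vcan UMI was present in 91.9%, 85.3%, 85.1% and 76.7% of Gdf5-positive cells and in 16.1% of erythroid-like cells. After thinning the shares were 71.2%, 60.4%, 58.9% and 47.4%, against 6.85%. In chondrocyte-like cells they were 74.0%, 56.6%, 56.9% and 53.6% before and 44.5%, 24.6%, 25.6% and 25.1% after thinning.

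Tnfaip6 (chr2:52038009-52056686, plus strand) encodes TSG-6, which transfers heavy chains of inter-alpha-inhibitor onto hyaluronan. It stood at 121, 83.1, 76.3 and 70.1 CPM in Gdf5-positive cells, 92.2, 77.5, 73.6 and 79.1 CPM in other mesenchymal cells and 27.4, 24.0, 18.1 and 18.7 CPM in chondrocyte-like cells. Gdf5-positive and other mesenchymal cells were thus both above the Gdf5-negative chondrocyte-like cells, although 481 of 2372, 366 of 1295, 514 of 1474 and 453 of 861 Gdf5-positive cells themselves came from chondrocyte-like clusters. Those cells held 69.3, 35.9, 39.9 and 40.7 CPM. A Tnfaip6 UMI was present in 45.6%, 37.2%, 31.9% and 29.7% of Gdf5-positive cells, in 16.5%, 15.9%, 13% and 12.9% of chondrocyte-like cells and in 5.57% of erythroid-like cells. After thinning these shares were 19.5%, 14.8%, 12.9% and 11.96% in Gdf5-positive, 5.47%, 4.75%, 3.71% and 4.05% in chondrocyte-like and 1.24% in erythroid-like cells. The heavy chains that TSG-6 transfers are made mainly in the liver, and of the list of heavy chains and bikunin Itih5 had the most UMIs, at 6.12, 5.46, 5.21 and 3.02 CPM in Gdf5-positive and 11.7, 35.0, 39.5 and 20.0 CPM in other mesenchymal cells, at least 2-fold lower in the E14.5 libraries. Against chondrocyte-like cells it was 2-fold higher in both mutant libraries, and Itih4, with 1 against 10 UMIs, was lower in the Glut1-deleted library.

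The other hyaluronan-binding matrix genes did not share the pattern of Vcan and Tnfaip6. Acan, the cartilage proteoglycan that also marks the chondrocyte list, was at 122, 416, 489 and 542 CPM in Gdf5-positive cells, and Hapln1, the link protein that locks aggrecan onto hyaluronan, at 65.7, 401, 385 and 432 CPM. Both were at least 2-fold lower in Gdf5-positive than in chondrocyte-like cells of the control libraries, joined in the E13.5 control by Hapln3. Vcan and Tnfaip6 were the 2 genes of that list at least 2-fold higher in the controls. In DCKO neither Acan nor Hapln1 was 2-fold apart in the class, although its cluster 1 cells held 121.9 and 55.6 CPM against 966 and 781 CPM in chondrocyte-like cells, whereas Ncan was higher (6 against 19 UMIs in the larger class) and Hapln4 lower (1 against 25). Against other mesenchymal cells Acan, Hapln1 and Bcan, a proteoglycan best known from brain, were higher in the class in all 4 libraries, and Ptx3, which helps to cross-link hyaluronan through the heavy chains, was lower in the E14.5 libraries. Ptx3 stood at 14.4, 10.6, 11.1 and 12.4 CPM in Gdf5-positive and 18.2, 23.5, 23.98 and 26.3 CPM in other mesenchymal cells. In the Gdf5-positive cells of cluster 1 Hapln1 was at 18.6, 63.98, 81.3 and 55.6 CPM, within 2-fold of the 16.2, 78.7, 62.4 and 65.8 CPM of other mesenchymal cells. There Acan was at 85.05, 136, 167 and 122 CPM, and Bcan had only 10, 3, 4 and 1 UMIs. Of the proteases that cleave versican, 3 were 2-fold higher in the E13.5 control (Adamts1, Adamts5 and Adamts15) and 4 of 6 tested in the E14.5 control, where Adamts4 joined them, beside 10.9% and 11.9% of all genes higher. The median log2 ratio was 1.11 and 1.48, beside 0.12 and 0.15 over all genes tested. Against other mesenchymal cells none was higher, and Adamts4 and Adamts9 were 2-fold lower in every library, joined by Adamts5 in the Glut1-deleted library. Adamts9 stood at 15.3, 11.5, 12.1 and 12.6 CPM in Gdf5-positive and 37.4, 39.1, 40.5 and 38.0 CPM in other mesenchymal cells. Adamts5 stood at 5.28, 13.8, 7.41 and 7.36 CPM in Gdf5-positive and 0.444, 0.525, 0.436 and 0.354 CPM in chondrocyte-like cells. In the Gdf5-positive cells of cluster 1 it was at 7.03, 22.02, 12.9 and 19.2 CPM, where DCKO was at -0.20 (-0.74 to 0.31) against control. Adamts15 stood at 18.1, 20.1, 15.2 and 9.33 CPM against 2.75, 0.342, 0.748 and 0.589 CPM.

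Prg4 (chr1:150449412-150466165, minus strand), the lubricin gene, was scarce at these ages. In Gdf5-positive cells it stood at 3.22 CPM (2.46 to 4.13), 6.54 CPM (5.12 to 8.22), 4.64 CPM (3.52 to 6.02) and 2.89 CPM (1.81 to 4.38), with 61, 73, 57 and 22 UMIs in 40, 45, 33 and 15 cells. The E14.5 control stood above the E13.5 control and DCKO beyond the intervals, whereas the E14.5 control and the Glut1-deleted library overlapped. Other mesenchymal cells held 1.19, 7.07, 6.82 and 4.10 CPM and chondrocyte-like cells 0.711, 0.502, 0.270 and 0.303 CPM. The share of cells with a Prg4 UMI was 1.69%, 3.47%, 2.24% and 1.74% in Gdf5-positive cells, or 0.796%, 1.21%, 1.02% and 0.779% after thinning. The share in chondrocyte-like cells, 0.268%, 0.325%, 0.207% and 0.139%, lay close to or below the 0.310% of erythroid-like cells. Whether it is background was not tested, and the erythroid-like share rests on 1 of 323 cells (0.00784% to 1.71%). That interval also held the 1.69% of Gdf5-positive cells in the E13.5 control, and the 1.74% of DCKO lay just above it. Of the cells with a Prg4 UMI, 60.6%, 30.2%, 21.7% and 19.0% also had a Gdf5 UMI, over 66, 149, 157 and 79 cells.

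The genes of joint lining and articular surface, set beside Prg4, were mostly higher than in chondrocyte-like cells: 6 of 7 tested in the E13.5 control and 5 of 6 in the E14.5 control, beside 10.9% and 11.9% of all genes. They were Creb5, Clu, Col22a1, Osr1 and Osr2 in both, with Cilp in the former. Creb5, a transcription factor of the articular surface that is also an interzone marker, stood at 346, 243, 225 and 128 CPM in Gdf5-positive and 48.5, 28.4, 27.8 and 20.6 CPM in chondrocyte-like cells. In the Gdf5-positive cells of cluster 1 Creb5 was at 437, 362, 366 and 299 CPM, so that DCKO lay nearer to the control there than in the class. Against other mesenchymal cells the list was divided, beside 12.3%, 12%, 14.0% and 12.5% of all genes apart. In the E13.5 control Creb5, Erg, Col22a1 and Osr2 were higher and Vit lower, and in the E14.5 control Col22a1 and Osr2 were higher and Vit and Cilp lower. In the Glut1-deleted library Erg, Col22a1 and Osr2 were higher and Clu, Vit and Cilp lower. In DCKO, where 7 of the 8 genes could be tested, none was higher, and Clu and Cilp were lower. Only 38.4% of the DCKO class came from cluster 1, where its cells held Osr2 at 149, Erg at 27.6 and Col22a1 at 0.467 CPM. The part of class makeup in these calls was not tested.

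Gdf5-positive cells were then compared with chondrocyte-like cells without a Gdf5 UMI, to see how the members differed between these classes. Cluster 1 supplied 68.4%, 67.9%, 58.1% and 38.4% of the Gdf5-positive class, and the part of this makeup in the ratios was not tested. In the E13.5 control 5 of the 7 members with at least 10 UMIs in either class were at least 2-fold apart, beside 15.8% of all genes tested, of which those higher in Gdf5-positive cells made 10.9%. The counts were 4 of 8 in the E14.5 control (15.9% of all genes, 11.9% higher), 4 of 8 in the Glut1-deleted (14.3%, 10.7% higher) and 4 of 7 in the DCKO library (12.7%, 10.1% higher). Each of these members was higher in Gdf5-positive cells. Cd44 was 4.50-, 16.1-, 7.64- and 4.56-fold higher, with log2 ratios of 2.17 (1.43 to 2.98), 4.01 (3.51 to 4.54), 2.93 (2.47 to 3.41) and 2.19 (1.57 to 2.79). Prg4 was 4.53-, 13.02-, 17.2- and 9.54-fold higher, against 13 to 22 UMIs in chondrocyte-like cells. For Cd44 and Prg4 the share of chondrocyte-like cells with a UMI was not set apart from that of erythroid-like cells. Vcan was 2.37-, 4.08-, 3.45- and 2.56-fold higher, and Tnfaip6 4.41-, 3.46-, 4.21- and 3.75-fold. The range of Tnfaip6 was the narrowest of the 4. The fifth gene in the E13.5 control was Has1, with 11 against 4 UMIs and a log2 ratio of 1.71 (-0.05 to 3.81). When the libraries were merged without integration, the E13.5 ratio of Cd44 became -0.08 and that of Has1 0.16, and with all of cluster 1 in place of Gdf5-positive cells the E13.5 ratio of Vcan was 0.97.

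Against other mesenchymal cells fewer members stood apart, save in the E13.5 control. That class itself drew 24.9%, 43.9%, 31.1% and 31.9% of its cells from cluster 1 and 48.0%, 35.1%, 48.7% and 34.8% from cluster 3, so its makeup differed between libraries, and its part in the ratios, ages and genotypes read in it was not tested. In the E13.5 control 5 of 9 were at least 2-fold apart, beside 12.3% of all genes. Prg4 and Vcan were higher, as were 5.15% of all genes, and Cd44, Cemip and Has3 lower, as were 7.14%. Prg4 was 2.70-fold higher, with a log2 ratio of 1.43 (0.85 to 2.02), and Vcan 2.52-fold, with 1.33 (1.30 to 1.37). Cd44 was 2.03-fold lower, with -1.02 (-1.41 to -0.64), and Cemip rested on 2 against 12 UMIs. The Cd44 ratio lay between -0.62 and -0.84 under 4 other settings, so its place past 2-fold was narrow. In the E14.5 control only Has1 was apart, 1 of 8 beside 12% of all genes (8.06% lower), with 7 against 26 UMIs and a log2 ratio of -1.17 (-2.62 to 0.07). In the Glut1-deleted library none of 8 was apart (14.0% of all genes), and in DCKO none of 7 (12.5%). Cd44 was at 0.09 (-0.20 to 0.37) in the E14.5 control, -0.81 (-1.12 to -0.51) in the Glut1-deleted and -0.65 (-1.21 to -0.12) in the DCKO library.

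**Figure D2:**
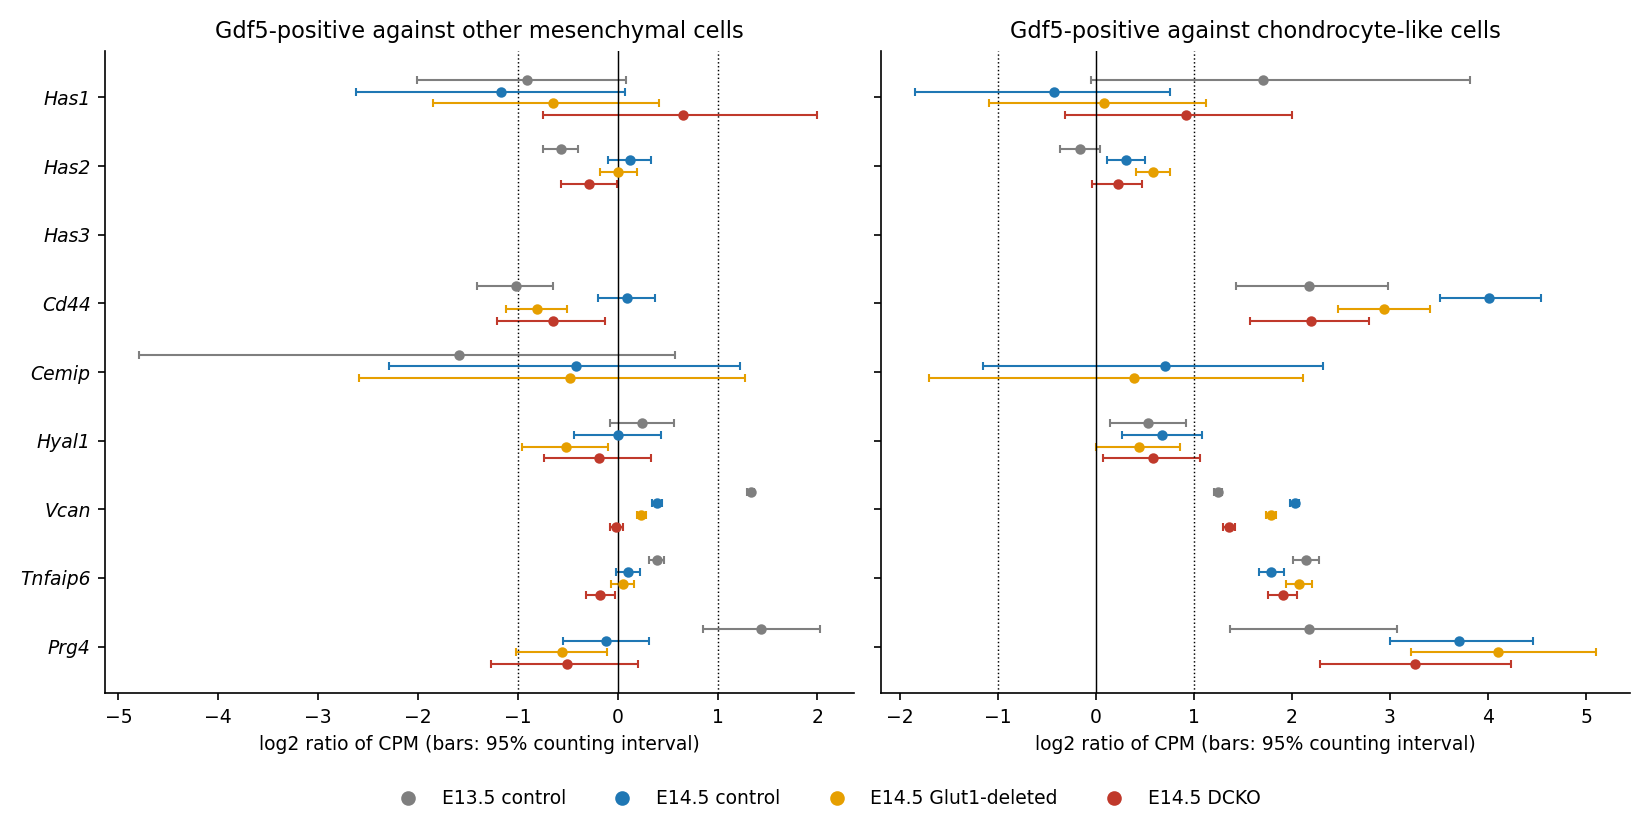
Log2 ratio of each gene's CPM in Gdf5-positive cells to that in other mesenchymal cells and to that in chondrocyte-like cells (points, by library, with exact 95% intervals as bars and dotted lines at 2-fold). Cd44, Prg4, Vcan and Tnfaip6 lie past 2-fold above chondrocyte-like cells in all 4 libraries, whereas against other mesenchymal cells most points lie inside the dotted lines. Has3 has no point and Cemip only those with at least 10 UMIs.

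The clusters placed these levels more finely. Vcan was at 799, 796, 700 and 637 CPM in cluster 1, the Gdf5-led cluster, and at 649, 238, 286 and 302 CPM in the chondrocyte-like cluster 0, led by Tbx5, Gdf10 and Tagln3. It was at 165, 77.9, 82.2 and 67.7 CPM in the chondrocyte-like cluster 2, which holds Ibsp, an osteogenic gene, among its leading genes. Chondrocyte-like cells thus ranged several-fold in Vcan, with cluster 2 lowest of the 5 large clusters in every library. Tnfaip6 followed the same order, at 133, 104, 104 and 114 CPM in cluster 1, 58.3, 34.5, 32.7 and 33.9 CPM in cluster 0 and 9.90, 15.2, 13.1 and 13.1 CPM in cluster 2. In the mesenchymal cluster 3 it was at 104, 92.98, 80.9 and 98.6 CPM.

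Cd44 was higher in cluster 3 than in cluster 1 in all 4 libraries, while Prg4 changed places between them. Cd44 was at 7.64, 24.0, 23.3 and 14.4 CPM in cluster 3, against 3.63, 15.6, 10.9 and 4.40 CPM in cluster 1 and 10.2, 6.51, 11.04 and 5.29 CPM in cluster 4. Prg4 was at 1.17, 9.40, 9.92 and 9.34 CPM in cluster 3, against 3.98, 9.68, 5.85 and 4.11 CPM in cluster 1. In the E13.5 control Prg4 was therefore higher in the Gdf5-led cluster, in the E14.5 control both were level, and in both mutant libraries cluster 3 was higher. Cluster 1 held 64.8%, 53.7%, 29.4% and 25.2% of all Prg4 UMIs and 16.8%, 38.0%, 19.1% and 10.2% of all Cd44 UMIs.

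**Figure D3:**
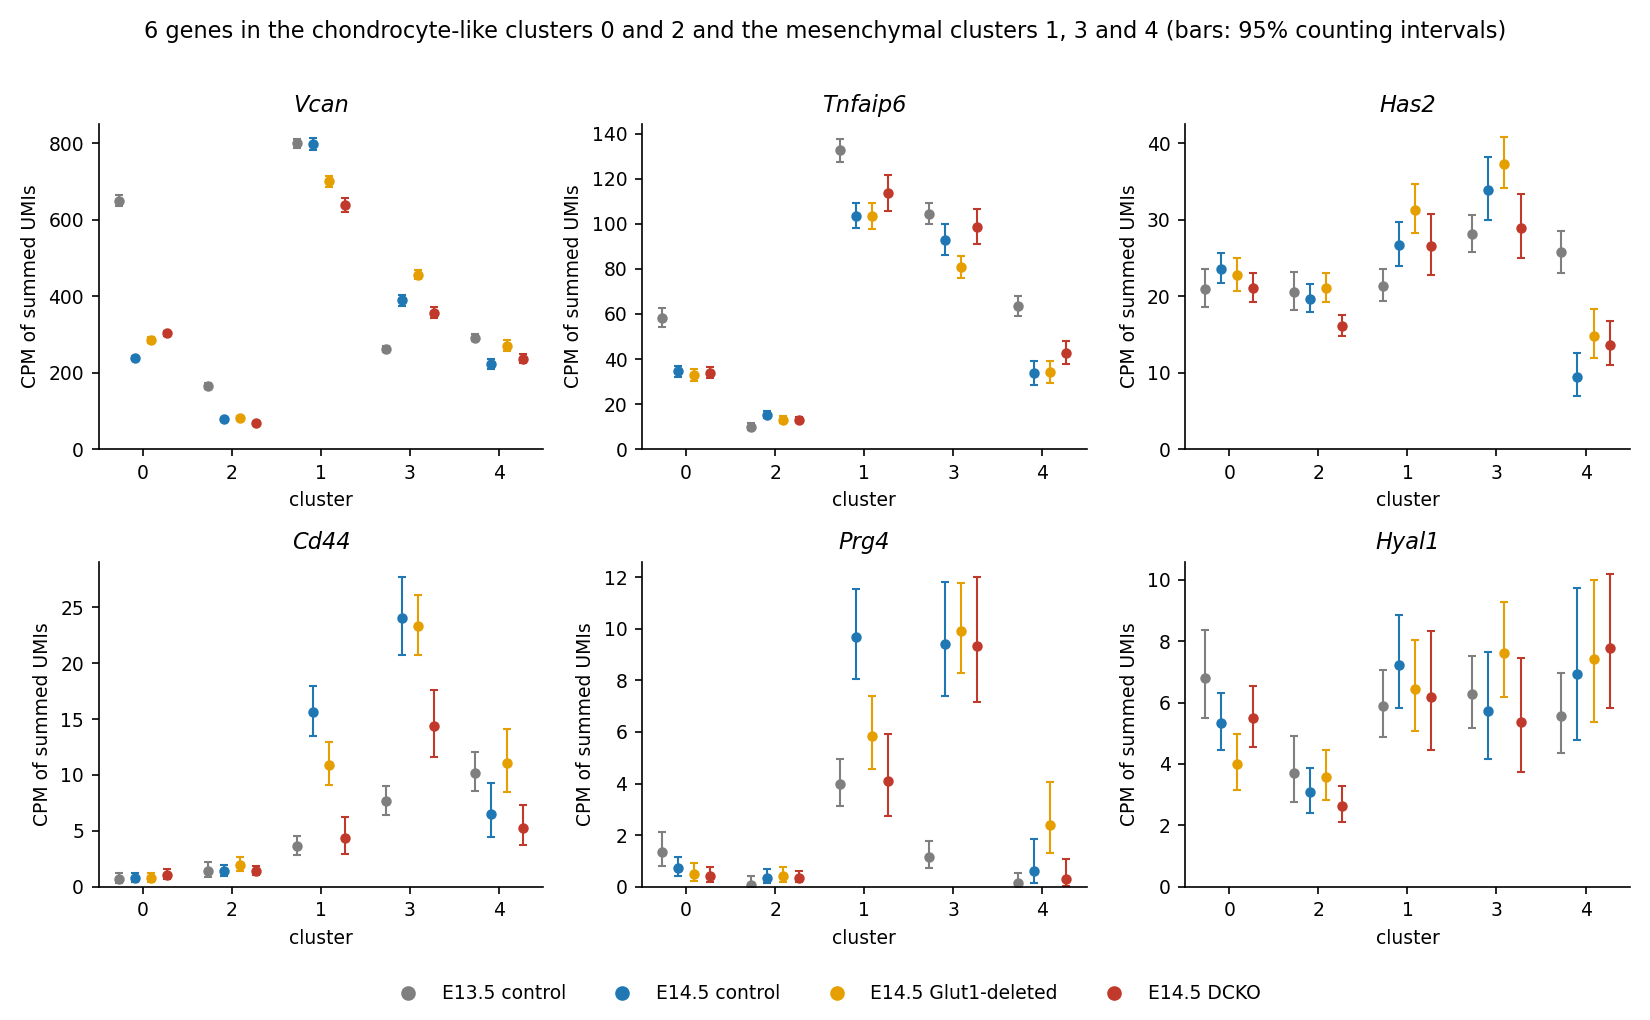
CPM (y axis, with exact 95% Poisson intervals as bars) of Vcan, Tnfaip6, Has2, Cd44, Prg4 and Hyal1 in chondrocyte-like clusters 0 and 2, the interzone-like cluster 1 and mesenchymal clusters 3 and 4, by library. Vcan and Tnfaip6 peak in cluster 1, while Cd44 in cluster 3 reaches 24.0 CPM in the E14.5 control.

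Within cluster 1 the members were also read against the Gdf5 count of each cell (0, 1, 2, or 3 or more UMIs). A deep cell has a better chance of both counts, and the bins share their libraries, so the values are descriptions. In the E14.5 control Cd44 stood at 7.21, 18.8, 22.7 and 31.0 CPM from the lowest to the highest bin, over 1091, 402, 182 and 295 cells. In the Glut1-deleted library it stood at 6.50, 10.96, 16.8 and 22.0 CPM, and in DCKO at 3.42, 2.32, 11.3 and 14.7 CPM, the last 3 bins with 3, 5 and 6 UMIs. In the E13.5 control, with 3.24, 2.44, 6.02 and 3.85 CPM, no such climb was seen. Vcan in the E13.5 control stood at 570, 776, 858 and 1084 CPM, and Tnfaip6 at 115, 137, 138 and 152 CPM. In the E14.5 control Vcan stood at 723, 843, 916 and 880 CPM and Tnfaip6 at 89.8, 113, 130 and 117 CPM, so that at both ages cells without a Gdf5 UMI were lowest. Prg4 at E14.5 had no such order, at 8.77, 6.89, 21.9 and 9.09 CPM.

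**Figure D4:**
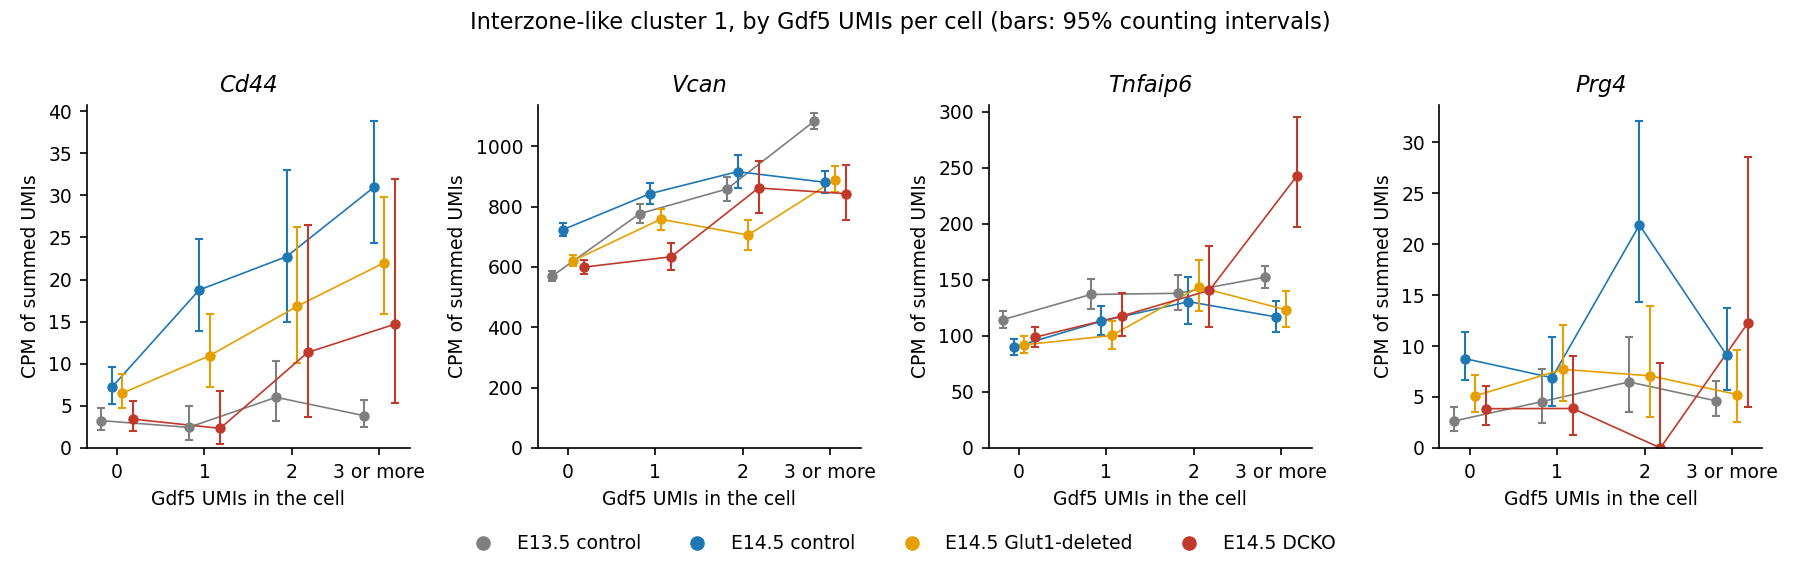
CPM (y axis, exact 95% Poisson intervals as bars) of Cd44, Vcan, Tnfaip6 and Prg4 in cells of cluster 1 with 0, 1, 2, or 3 or more Gdf5 UMIs (x axis), by library. Cd44 in the E14.5 control climbs from 7.21 to 31.0 CPM across the bins, while in the E13.5 control it stays between 2.44 and 6.02 CPM.

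To see how the members changed with age, the E14.5 control was set against the E13.5 control. In Gdf5-positive cells 2 of 7 members were at least 2-fold apart, beside 11.5% of all genes (5.43% higher). Cd44 was 3.96-fold higher at E14.5, with a log2 ratio of 1.99 (1.58 to 2.40), and Prg4 2.03-fold higher, with 1.02 (0.51 to 1.54). Prg4 fell short of 2-fold after the highest 6% of doublet scores were removed (0.94) and as a mean of CPM over cells (0.81). Has2 was at 0.52 (0.29 to 0.74), Vcan at -0.43 (-0.48 to -0.39) and Tnfaip6 at -0.54 (-0.65 to -0.43), all within 2-fold. Within cluster 1 Cd44 was 4.31-fold and Prg4 2.43-fold higher, and in the Gdf5-positive cells of cluster 1 Cd44 was 6.22-fold higher, from 3.91 to 24.3 CPM. Vcan was level in cluster 1, at -0.01. The stress genes Hspa1a and Hspa1b, near-identical copies whose reads can be split, moved with age as well, from 10.0 to 20.8 and from 1.53 to 8.51 CPM in Gdf5-positive cells, and their part in these differences was not tested.

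The age difference took another form outside the Gdf5-positive class. Of 9 members 2 were apart in other mesenchymal cells, beside 11.9% of all genes (6.69% higher and 5.21% lower). Prg4 was 5.93-fold higher at E14.5, with a log2 ratio of 2.57 (2.07 to 3.09), and Has3 went from 16 UMIs to 1. In cluster 3 Prg4 was 8.05-fold higher, from 1.17 to 9.40 CPM, with a log2 ratio of 3.01 (2.31 to 3.77). In cluster 4 Has2 was 2.72-fold lower, with -1.45 (-1.93 to -0.99). In chondrocyte-like cells 2 of 8 members were apart, beside 13.1% of all genes (5.46% higher and 7.61% lower): Vcan was 2.32-fold lower, with -1.21 (-1.26 to -1.17), and Has1 went from 4 to 37 UMIs. Because cluster 2 had no chondrocyte marker of the list among its leading genes, the class was also read by cluster. Vcan was 2.73-fold lower at E14.5 in cluster 0 and 2.11-fold lower in cluster 2. Tnfaip6 went in opposite directions, with -0.76 in cluster 0 and 0.62 (0.33 to 0.92) in cluster 2. Without integration the class ratio of Vcan was -0.62 and that of Has1 0.77.

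With age the share of chondrocyte-like cluster 2 in the Gdf5-positive class went from 3.20% to 13.4%, and genes of the cartilage as well as the joint lists differed in the class, beside 11.5% of all genes. Acan and Hapln1 were 2-fold higher at E14.5 and Ncan lower, Adamts4 and Adamts5 higher, and, of the genes of joint lining and articular surface, Clu and Col22a1 higher. Clu, a secreted chaperone, stood at 7.86 and 21.5 CPM and Col22a1, a collagen of tissue junctions, at 1.58 and 11.8 CPM. Within the Gdf5-positive cells of cluster 1 Acan went from 85.05 to 136.5 CPM, with a log2 ratio of 0.68 (0.55 to 0.82), short of 2-fold, and Hapln1 from 18.6 to 63.98 CPM, with 1.78 (1.54 to 2.03). There Clu went from 8.24 to 31.7 CPM, Col22a1 from 2.0 to 17.5 CPM and Adamts5 from 7.03 to 22.02 CPM, while Adamts4 and Ncan rested on 3 to 13 UMIs. None of the sugar-supply genes was 2-fold apart in the class, with a median log2 ratio of 0.37 beside -0.07 over all genes tested. Ugdh went from 131 to 213 CPM in the class but from 115.6 to 89.2 CPM in its cluster 1 cells, with a log2 ratio of -0.37 (-0.52 to -0.23), and Gfpt2, Gpi1 and Ugp2 were at -0.39, -0.27 and -0.26 there. The other genes of that list went the other way in these cells. Nagk was at 0.75 (0.44 to 1.05), Uap1 at 0.34 (0.12 to 0.55), and Pgm3, Gnpnat1 and Gfpt1 at 0.22, 0.09 and 0.06. In other mesenchymal cells 4 of 8 joint-lining genes tested (Clu, Vit, Cilp and Col22a1) were higher and Osr1 lower, beside 6.69% and 5.21% of all genes, with Acan, Hapln1, Itih5, Adamts4 and Adamts5 also higher and Ncan lower. In chondrocyte-like cells Acan and Layn, a hyaluronan receptor, were higher and Adamts15 and Osr1 lower.

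The genotypes were compared at E14.5, each mutant library against the same control library, which both comparisons share. In Gdf5-positive cells of the Glut1-deleted library none of 7 members was 2-fold apart from control, beside 4.83% of all genes. Cd44 was at -0.68 (-1.04 to -0.33), Prg4 at -0.49 (-1.02 to 0.03) and Vcan at -0.18 (-0.23 to -0.13). With at least 2 Gdf5 UMIs required, Prg4 was at -1.35. In DCKO 2 of 6 members were apart, both lower, beside 9.13% of all genes (7.28% lower). Cd44 was 3.01-fold lower, from 15.0 to 4.995 CPM, with a log2 ratio of -1.59 (-2.14 to -1.08). Prg4 was 2.26-fold lower, with -1.18 (-1.94 to -0.47), and Vcan 1.62-fold lower, with -0.70 (-0.76 to -0.64). Has2 was at -0.46 (-0.75 to -0.17), Tnfaip6 at -0.25 (-0.40 to -0.09) and Hyal1 at -0.24 (-0.83 to 0.32). The median over all genes tested was -0.17, and TMM scaling moved every ratio of this comparison by 0.15. DCKO against Glut1-deleted put none of 7 members past 2-fold, beside 5.62% of all genes, with Cd44 at -0.91 (-1.48 to -0.37).

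Since fewer of the Gdf5-positive cells came from cluster 1 in DCKO, the same genes were read within clusters. In the Gdf5-positive cells of cluster 1 Cd44 went from 24.3 CPM in the control to 16.0 in the Glut1-deleted and 6.54 in the DCKO library, with 151, 88 and 14 UMIs. DCKO was thus 3.71-fold lower there, with a log2 ratio of -1.89 (-2.80 to -1.10), a difference no smaller than in the whole class. The stress gene Hspa1a moved with genotype there, from 22.7 to 44.9 CPM in DCKO with a log2 ratio of 0.98 (0.60 to 1.37), and in chondrocyte-like cells from 6.48 to 24.1 CPM with Hspa1b from 2.6 to 7.74 CPM, and their part in these differences was not tested. In all of cluster 1 Cd44 was 3.55-fold lower, with -1.83 (-2.43 to -1.27), and Prg4 2.36-fold, with -1.24 (-1.88 to -0.63). Vcan was at -0.32 (-0.37 to -0.27) in cluster 1, a smaller difference than in the class, and Tnfaip6 at 0.13. In cluster 3 Cd44 was at -0.74 (-1.11 to -0.37) and Prg4 at -0.01 (-0.52 to 0.50), so the lower Prg4 of cluster 1 was not seen there. When only Gdf5-positive cells outside chondrocyte-like clusters were taken, clusters 3 and 4 included, Prg4 was at -0.52 in DCKO. As a mean of CPM over cells it was at -0.85.

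**Figure D5:**
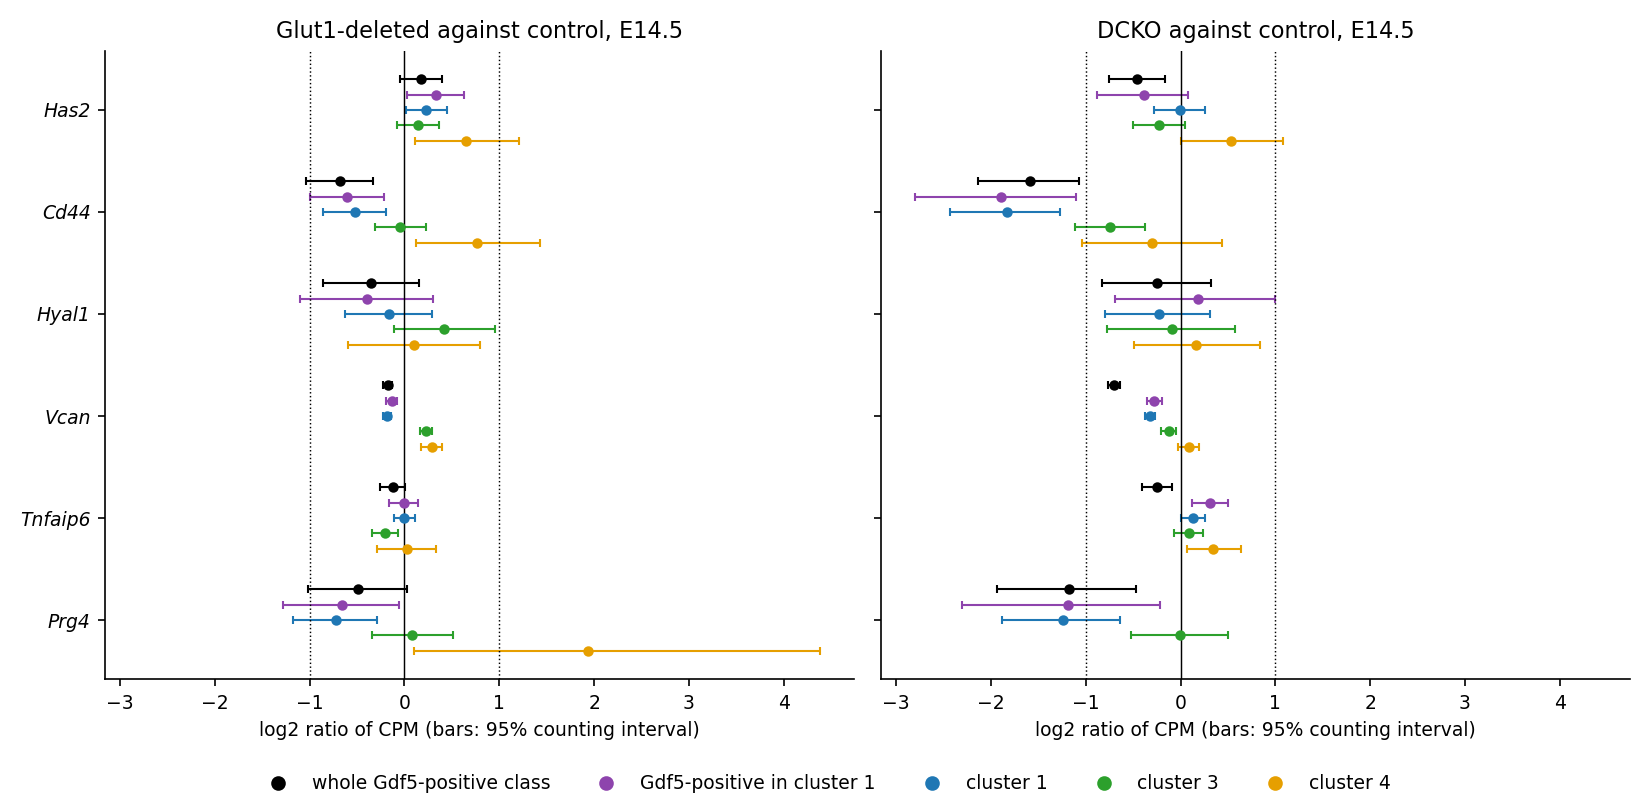
Log2 ratio of CPM in the Glut1-deleted and DCKO libraries to that in the E14.5 control (points with exact 95% intervals, dotted lines at 2-fold) for 6 genes in the Gdf5-positive class, in its cluster 1 cells and in clusters 1, 3 and 4. Cd44 lies near -1.6 to -1.9 in DCKO in the class and in cluster 1, and Prg4 near 0 in cluster 3. Prg4 of cluster 4 in DCKO, with under 10 UMIs in both groups, is not plotted.

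In other mesenchymal cells no member of 8 was 2-fold apart from control in the Glut1-deleted (3.38% of all genes) or the DCKO library (4.57%). The nearest were Cd44, at -0.85 (-1.16 to -0.54), and Prg4, at -0.79 (-1.22 to -0.36), both in DCKO. DCKO against Glut1-deleted put 1 of 8 past 2-fold (4.48% of all genes, 3.24% lower), Cd44, which was 2.09-fold lower with a log2 ratio of -1.06 (-1.35 to -0.78), although as a mean of CPM over cells this was -0.88. In chondrocyte-like cells none of 8 was apart in the Glut1-deleted library (5.82% of all genes) and 1 of 8 in DCKO (9.23%, 4.99% lower). That was Cemip, with 12 against 5 UMIs and -1.70 (-3.56 to -0.09), and against the Glut1-deleted library it was again the 1 member of 8 apart (5.09% of all genes, 2.8% lower). By cluster, Vcan in DCKO was at 0.34 in cluster 0 and -0.20 in cluster 2, and Has2 at -0.29 (-0.47 to -0.10) in cluster 2. A cluster led by Mt1 and Car9 made up 0.268%, 0.499%, 20.3% and 16.1% of the chondrocyte-like class. Vcan in it was at 155 CPM in the Glut1-deleted and 91.9 CPM in the DCKO library.

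Around the members, the lists of their pathways differed in Gdf5-positive cells of DCKO in how many genes stood apart, beside 9.13% of all genes. None of the sugar-supply genes was 2-fold apart from control (median log2 ratio 0.10), nor any of the breakdown genes (-0.21) or the 7 matrix genes tested (0.23). Of 4 receptors tested Cd44 and Stab1 were lower, and of the versican proteases Adamts15 was. Of 6 joint-lining genes tested, 4 were lower, Clu, Col22a1, Osr1 and Osr2, with a median of -1.27, beside 7.28% of all genes lower and an all-gene median of -0.17. Clu went from 21.5 to 5.92 CPM, Col22a1 from 11.8 to 0.526 CPM, Osr1 from 30.7 to 14.46 CPM and Osr2 from 196 to 71.1 CPM, Osr1 and Osr2 being zinc-finger factors of joint development. Osr2 is also an interzone marker. Cluster 1 supplied 67.9% of the class in the control and 38.4% in DCKO, and the part of this in these differences was not tested. Within the Gdf5-positive cells of cluster 1 Clu was still 2-fold lower, from 31.7 to 11.7 CPM, with a log2 ratio of -1.44 (-2.10 to -0.83), and Col22a1 went from 109 UMIs to 1. Osr2 was at -0.95 (-1.12 to -0.78) there, and Osr1 at -0.31 (-0.68 to 0.05). Stab1 (15 against 4 UMIs) was at -0.37 and Adamts15 at -0.50 (-0.98 to -0.04), neither past 2-fold. In Gdf5-positive cells of the Glut1-deleted library Col22a1 alone, at 4.16 CPM, was 2-fold lower among the genes of these lists. In other mesenchymal cells of DCKO Vit, Col22a1 and Osr2 were 2-fold lower than in control and Ncan and Hapln3 higher, and in chondrocyte-like cells Layn, Ncan, Itih5 and Adamts4 were lower and Bcan, Hapln4 and Vit higher. Of all genes 4.57% and 9.23% were apart in these classes. In the Glut1-deleted library Col22a1 was also lower in other mesenchymal cells, beside 3.38% of all genes apart. In its chondrocyte-like cells Bcan, Adamts15, Vit and Osr1 were higher, beside 5.82% apart.

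The genes most like each member were taken over 12 profiles, the 3 classes in each of 4 libraries, as the highest Pearson correlation of log2(CPM + 1) among 7105 genes. The profiles share libraries and depth, so the values are descriptions. Vcan was most like Cdh11 (0.985) and Nfil3 (0.9699), Tnfaip6 like Tcim (0.984) and Zcchc18 (0.979), and Cd44 like Lox (0.974) and Dclk1 (0.964). Has2, the flattest of them, reached 0.913 with Ctnnd1 and 0.893 with Brd9. The other members stayed under 10 CPM in every profile and were not compared in this way.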

How the data were processed

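Single-cell RNA libraries of 4 conditions, 1 each, were analysed from the deposited count matrices. The authors made these UMI counts per gene and cell barcode with the 10x Genomics 3′ v3.1 kit and Cell Ranger 6.1.2 (per the file headers), and the submitters' processing notes name the mm10 build and Seurat 3. The counts are not normalised and sum to 100344565, 84188147, 97110697 and 91574038 UMIs. Barcodes with 200 to 6000 genes and at most 10% mitochondrial UMIs were kept (12446 of 12769, 9305 of 9707, 11264 of 11690 and 11305 of 11602). Between 25 and 40 barcodes, 0.233% to 0.381%, were shared by a pair of libraries and were kept.

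The 4 libraries were joined by integration in Seurat 5.3.0 (R 4.3.3) and their cells grouped into clusters (2000 variable features without the members and pathway genes, 30 dimensions, resolution 0.3). A cluster of 2987 shallow cells (median 935 UMIs) was left in no class. Clusters were named from marker lists, by a scoring rule set after the clusters were seen. Gdf5-positive cells were those of mesenchymal or chondrocyte-like clusters with at least 1 Gdf5 UMI. UMIs were summed per class and library with Python 3.11.15, numpy 2.4.6, pandas 2.3.3 and scipy 1.17.1, and given as CPM with exact Poisson intervals; ratios have exact conditional and shares of cells exact (Clopper-Pearson) intervals, all at 95%. A gene was called apart at 2-fold or more with at least 10 UMIs in either group. With 1 library per condition no test was run. For shares, cells were also thinned to 2000 UMIs. Scrublet (scanpy 1.11.5) marked 0, 2, 0 and 0 cells as doublets and was taken not to have worked; the highest 6% of its scores were removed as an alternative. The ratio script was tested on simulated data.

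Members and lists were chosen with earlier results of these data known. All 9 members are named in every class and library; a gene of a pathway list is named where it was 2-fold apart in a comparison described, or where its role is needed to read a member, and likeness was computed for members with at least 10 CPM in a profile, among genes with at least 20 CPM. Gene positions are from GENCODE M21 on GRCm38, which held 99.8% of the gene IDs. Alternatives changed the clustering, cell filters, Gdf5 threshold, classes, scaling (TMM, edgeR 4.0.16), UMI minimum and averaging. The removal of high doublet scores, of the Car9-led cluster and of the Gdf5-negative cells of cluster 1 were chosen after seeing the data. Figures were drawn with matplotlib 3.10.9.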

Additional observations from a re-analysis of the deposited data

Results flagged for a closer look

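Outside the compared classes, Cd44 was at 84.7 CPM over all libraries in cluster 8, which holds 358 cells with a median of 1764.5 UMIs. Its leading genes include C1qb, Fcer1g and Tyrobp of the macrophage list but also S100a9, S100a8 and Stfa1, which are known from neutrophils, so it is given no cell type here. It drew attention because this is a signal in cells that no comparison of the report uses. By library the level was 67.8, 62.6, 97.6 and 97.3 CPM in the order E13.5 control, E14.5 control, Glut1-deleted and DCKO, from 185 UMIs in all. A Cd44 UMI was present in 26.0% of these cells, or 16.9% after thinning to 2000 UMIs, against 1.55% of erythroid-like cells. For comparison, Gdf5-positive cells held 3.8 to 15.0 CPM.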

How the results depend on the processing

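The values were computed again under 13 alternatives. Of 442 values of members called apart, 441 kept their direction and 424 stayed past 2-fold. The reversal was Cd44 in Gdf5-positive against chondrocyte-like cells of the E13.5 control, a log2 ratio of -0.081 when libraries were merged without integration. Among the counts of members apart, 100 of 117 values lay within 1.5 times that reported and 17 did not. For Gdf5-positive against other mesenchymal cells in the E13.5 control, the count of 5 became 3 without integration, 3 with at least 2 Gdf5 UMIs and 3 with at least 30 UMIs. In the E14.5 control the count of 1 became 0 with at least 2 Gdf5 UMIs, 0 with at least 30 UMIs and 2 as a mean of CPM over cells. For the Glut1-deleted library against control in Gdf5-positive cells, 0 became 1 with at least 2 Gdf5 UMIs (Prg4, -1.35). For DCKO against control the 2 members became 1 when Gdf5-positive cells of chondrocyte-like clusters were left out and 1 as a mean of CPM, Prg4 leaving in both. In other mesenchymal cells 0 became 1 with cluster 1 in place of Gdf5-positive cells, 1 when its Gdf5-negative cells were left out and 1 as a mean of CPM. In chondrocyte-like cells 1 became 2 after the highest 6% of doublet scores were removed (Prg4, -1.29), 2 as a mean of CPM (Prg4, -1.54) and 0 with at least 30 UMIs. With age in Gdf5-positive cells 2 became 1 after removal of doublet scores and 1 as a mean of CPM. The cause was not tested in any of these, beyond the fewer genes that a minimum of 30 UMIs leaves.

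Over the alternatives the log2 ratio of DCKO to control in Gdf5-positive cells ran from -1.83 to -1.29 for Cd44, from -1.32 to -0.52 for Prg4 and from -0.71 to -0.32 for Vcan, and that of Cd44 with age from 1.91 to 2.59. TMM scaling moved every ratio of Gdf5-positive to chondrocyte-like cells by -0.12, -0.25, -0.23 and -0.27. No paired analysis was possible because each condition is 1 library and no test was run. The removal of doublets called by Scrublet was not run, since it called almost none. Members with few UMIs (Has1, Has3, Cemip, and Prg4 in chondrocyte-like cells) are limited by depth, and differences between libraries may be technical, since none was repeated.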
